A study of Mus musculus with 16 samples.

Results

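The comparison described here set liver from mice deleted for both *Gclc* and *Nrf2* (L-DKO) against liver deleted for *Gclc* alone (Gclc L-KO), to describe what NRF2 did to the liver transcriptome when glutathione synthesis was targeted. It used 8 of the 16 bulk RNA-seq libraries of the study, 4 per genotype, and the other 8 libraries, 4 wild-type (WT) and 4 deleted for *Nrf2* alone (Nrf2 L-KO), served as reference levels. The floxed alleles were *Gclc* f/f in Gclc L-KO, *Nrf2* f/f in Nrf2 L-KO and both in L-DKO, and WT mice carried *Gclc* wt/wt. Adult mice of at least 12 weeks received AAV-TBG-Cre, a virus that drives Cre recombinase from a hepatocyte promoter, through the tail vein, and livers were taken 21 days later. WT mice received the virus too, so no library came from an uninjected animal. Cre from this promoter acts in hepatocytes, and the Kupffer, endothelial, stellate and immune cells in the same piece of liver are expected to have kept both genes. The study describes its replicates as independent samples from mice.

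GCLC is the catalytic subunit of glutamate-cysteine ligase, the rate-limiting enzyme of glutathione synthesis, and GCLM is its modifier subunit. NRF2, the product of *Nfe2l2*, is a transcription factor that the adaptor KEAP1 holds at a low level by marking it for degradation. Oxidants and electrophiles modify KEAP1, and NRF2 then accumulates, pairs with a small MAF protein and binds antioxidant response elements near genes of glutathione metabolism, quinone and carbonyl reduction, conjugation, NADPH supply, iron storage and drug export. In liver it is known for this detoxification program and for lowering lipogenic gene expression when it is active.

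Promoter sequence is printed first for 6 genes with roles in these pathways, so that the best known core of the antioxidant response element can be seen beside the values. The 6 were picked by hand from 315 genes named by rule. How many of them hold the motif therefore says nothing about other genes. The windows are the 250 bases before the annotated start site, from RefSeq on build GRCm38.p6, whereas the expression table was made on GRCm39. Capitals mark TGACNNNGC on the strand of the gene, or its reverse complement where the match lies on the opposite strand. *Ugdh* (chr5:65435843-65436092, minus strand) holds 2 matches, which begin 132 and 94 bases before the start site. *G6pdx* (chrX:74428881-74429130, minus strand) holds 1 at 57 bases, *Gclm* (chr3:122245307-122245556, plus strand) 1 at 134 bases, and *Prdx1* (chr4:116685349-116685598, plus strand) 1 at 133 bases. *Txnrd1* has 3 promoters in the table, of which the one shown (chr10:82858956-82859205, plus strand) holds a match at 92 bases. It was shown because it holds the motif, and it is the only 1 of the 3 that does. *Nqo1* (chr8:107403206-107403455, minus strand) holds no match in its window, which says only that these letters are not in these bases.
Ugdh: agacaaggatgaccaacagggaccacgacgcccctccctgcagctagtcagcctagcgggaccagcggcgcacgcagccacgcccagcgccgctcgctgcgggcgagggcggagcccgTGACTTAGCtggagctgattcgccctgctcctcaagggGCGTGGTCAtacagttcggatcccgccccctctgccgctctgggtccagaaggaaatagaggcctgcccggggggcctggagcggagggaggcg
G6pdx: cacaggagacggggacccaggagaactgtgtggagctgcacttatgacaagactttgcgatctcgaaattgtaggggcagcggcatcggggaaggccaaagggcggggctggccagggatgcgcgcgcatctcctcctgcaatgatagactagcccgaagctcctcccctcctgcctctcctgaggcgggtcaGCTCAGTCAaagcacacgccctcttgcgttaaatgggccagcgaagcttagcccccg
Gclm: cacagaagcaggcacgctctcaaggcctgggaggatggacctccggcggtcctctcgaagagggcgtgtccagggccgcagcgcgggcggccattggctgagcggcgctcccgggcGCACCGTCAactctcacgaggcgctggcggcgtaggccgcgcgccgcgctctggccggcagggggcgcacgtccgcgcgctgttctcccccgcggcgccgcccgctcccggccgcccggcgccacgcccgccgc
Prdx1: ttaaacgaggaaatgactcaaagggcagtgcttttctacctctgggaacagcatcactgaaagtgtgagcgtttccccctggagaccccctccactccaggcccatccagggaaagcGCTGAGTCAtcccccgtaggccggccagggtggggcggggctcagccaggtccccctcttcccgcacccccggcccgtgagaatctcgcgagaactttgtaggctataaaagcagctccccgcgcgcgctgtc
Txnrd1: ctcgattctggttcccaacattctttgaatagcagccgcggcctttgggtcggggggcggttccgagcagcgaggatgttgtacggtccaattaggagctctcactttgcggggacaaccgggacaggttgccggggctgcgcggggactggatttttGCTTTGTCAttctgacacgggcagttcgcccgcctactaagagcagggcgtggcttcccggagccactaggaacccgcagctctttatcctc
Nqo1: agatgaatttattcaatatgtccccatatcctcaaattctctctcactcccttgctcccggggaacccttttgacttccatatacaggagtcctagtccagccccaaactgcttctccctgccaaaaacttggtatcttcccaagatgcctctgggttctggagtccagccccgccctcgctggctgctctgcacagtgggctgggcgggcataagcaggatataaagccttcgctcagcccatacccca
The motif stood in the 300-base promoters (250 bases before and 50 after the start) of 3781 of 27025 genes. Among tested genes with a promoter in the table it stood in 1862 of 11166 (16.7%), and 73.8% of tested genes could be matched. It stood in 19.6% of matched genes called lower in L-DKO than Gclc L-KO, 17.6% of those called higher and 16.5% of uncalled ones. For called changes of at least 1 log2 unit the shares were 26.0% (lower, 27 of 104) and 9.09% (higher, 5 of 55). Of lower, higher and uncalled genes 81.4%, 75.4% and 73.3% could be matched, and the shares were not tested.

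The targeted genes were examined first. *Gclc* read 13.01, 12.81, 13.84 and 14.06 in Gclc L-KO replicates 1 to 4 against 11.45, 11.44, 11.33 and 11.66 in L-DKO, with 12.96 to 13.52 in WT and 12.59 to 12.998 in Nrf2 L-KO. The values are regularised log2 values (rlog), on which 1 unit is a doubling and low genes are drawn together. The libraries labelled Gclc L-KO were not lower than WT in *Gclc* (difference 0.21, adjusted p = 0.535), whereas all L-DKO libraries lay below every other library. A gene-level value cannot show whether an exon was removed, and the Gclc L-KO labels were not checked by this gene. *Nfe2l2* read 11.57, 11.68, 11.80 and 12.05 in Gclc L-KO against 12.41, 12.29, 13.17 and 13.24 in L-DKO, and its RNA was higher in the libraries in which the gene was targeted (1.003 ± 0.21 SE, adjusted p = 0.00774). It also read 11.89 to 12.54 in Nrf2 L-KO against 11.54 to 11.62 in WT, so its level does not check that label either.

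*Alb*, which encodes albumin, read 19.61 to 21.59 in all 16 libraries, as liver does. Library medians over the tested genes ran from 8.33 to 8.38, and counts and library depth were not given with these values. Replicates 1 and 2 of every genotype read 14.1 to 14.7 for *Xist* and replicates 3 and 4 read 7.95 to 8.91, while *Ddx3y* on the Y chromosome read 5.07 to 5.37 and 10.3 to 10.8. The pattern is that of female replicates 1 and 2 and male replicates 3 and 4, although sex was not given in the labels. Genotype is balanced over this split, so the difference between genotypes was also taken within each pair. Sex and anything else that differs between the pairs cannot be told apart.

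Of the 15128 genes with a mean of at least 3 over the 16 libraries, 581 (3.84%) were higher and 726 (4.8%) were lower in L-DKO than Gclc L-KO (limma on all 16 libraries, Benjamini-Hochberg adjusted p under 0.05, two-sided). At that minimum *Gm42690* (mean 3.001) was just inside and *Cd1d2* (mean 2.998) just outside. The typical change was modest, with a median of 0.50 among the higher genes and -0.50 among the lower ones. Large changes were mostly falls: 136 lower genes and 76 higher genes differed by at least 1 log2 unit, and 41 and 8 by at least 2. With each pair fitted on its own, 62 genes were higher and 183 lower in replicates 1 and 2, and 1025 and 1155 in replicates 3 and 4. In 508 of the 581 and 633 of the 726 the 4 L-DKO libraries did not overlap the 4 Gclc L-KO libraries, against 1041 (6.88%) and 1064 (7.03%) of all genes. Without Gclc L-KO replicate 3 only 253 genes were higher and 400 lower, 331 were higher without Gclc L-KO replicate 4, and 317 without L-DKO replicate 4. Fitting only the 8 libraries gave 268 and 377.

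The enzymes that reduce quinones and carbonyls were widely lower. Of 30 tested quinone, carbonyl and epoxide enzymes 13 (43.3%) were lower in L-DKO and none was higher, and their median difference was -0.32 beside 0.00 over all genes. Over all genes 4.8% were lower and 3.84% higher, and every list count below stands beside these shares. *Cbr3*, a carbonyl reductase, read 10.27, 11.21, 11.19 and 11.06 in Gclc L-KO against 5.78, 5.01, 5.23 and 4.88 in L-DKO, a factor of 52.1 on the rlog scale. The groups were far apart, and L-DKO stood near the WT range of 4.96 to 5.47 (-5.70 ± 0.22, adjusted p = 6.52e-10). *Nqo1*, the NADPH-dependent quinone reductase used as the standard NRF2 marker, read 11.82, 12.61, 12.64 and 12.79 in Gclc L-KO against 8.97, 8.98, 8.21 and 8.18 in L-DKO. All L-DKO libraries were below all Gclc L-KO libraries for this gene (-3.88 ± 0.31, adjusted p = 1.50e-06), with WT at 8.05 to 9.16. *Cbr1* differed by -2.12 (adjusted p = 2.35e-06), the molybdenum enzyme *Aox1* by -2.03 (adjusted p = 2.77e-06) and the epoxide hydrolase *Ephx1* by -1.55 (adjusted p = 2.92e-05). The aldo-keto reductases were called with smaller steps, *Akr1c13* with -1.08 and *Akr1c19* with -1.19. The aldehyde and alcohol dehydrogenases divided, with 6 of 22 lower and 2 higher, or 0 higher with the replicate block. *Aldh1a1*, which oxidises retinal, differed by -1.29 (adjusted p = 0.00179) and *Aldh1a7* by -1.09 (adjusted p = 5.91e-06).

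Glutathione transferases, which attach glutathione to electrophiles, were also widely lower. Of 22 tested members 9 were lower and 1 was higher, with a median of -0.47. *Gsta1* read 10.66, 11.04, 11.80 and 12.96 in Gclc L-KO against 6.02, 5.40, 5.64 and 5.89 in L-DKO. The Gclc L-KO libraries spread widely, yet the lowest of these libraries stood far above the highest L-DKO library (-5.88 ± 0.37, adjusted p = 1.01e-07). *Gstm1*, of the mu class, read 18.19, 18.37, 18.32 and 18.29 in Gclc L-KO against 15.01, 14.85, 14.97 and 15.10 in L-DKO. Its groups were tight and well separated (-3.31 ± 0.11, adjusted p = 2.99e-10), and L-DKO also lay below the WT range of 15.67 to 16.12 (-0.89, adjusted p = 9.72e-04). *Gstm3* differed by -3.74, *Gstp2* by -3.68 and *Gsta2* by -3.57 (adjusted p = 2.11e-06, 1.26e-04 and 9.01e-07). The exception was *Gstp3*, with 0.58 and an adjusted p of 0.0199, which was not called without Gclc L-KO replicate 3, L-DKO replicate 3 or L-DKO replicate 4 (adjusted p = 0.0713, 0.0627 and 0.0584) or with only the 8 libraries (0.0789). *Gstp1* was not called in the fit on all 16 libraries (-2.09, adjusted p = 0.0536), but was with the replicate block (adjusted p = 0.00168), with only the 8 libraries (0.0313), with *Xist* as covariate (4.69e-04), with array weights (0.0309) and with a minimum mean of 6 (0.0468). Members of this family share sequence, and how reads common to several of them were assigned could shift the values of single members.

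**Figure D1:**
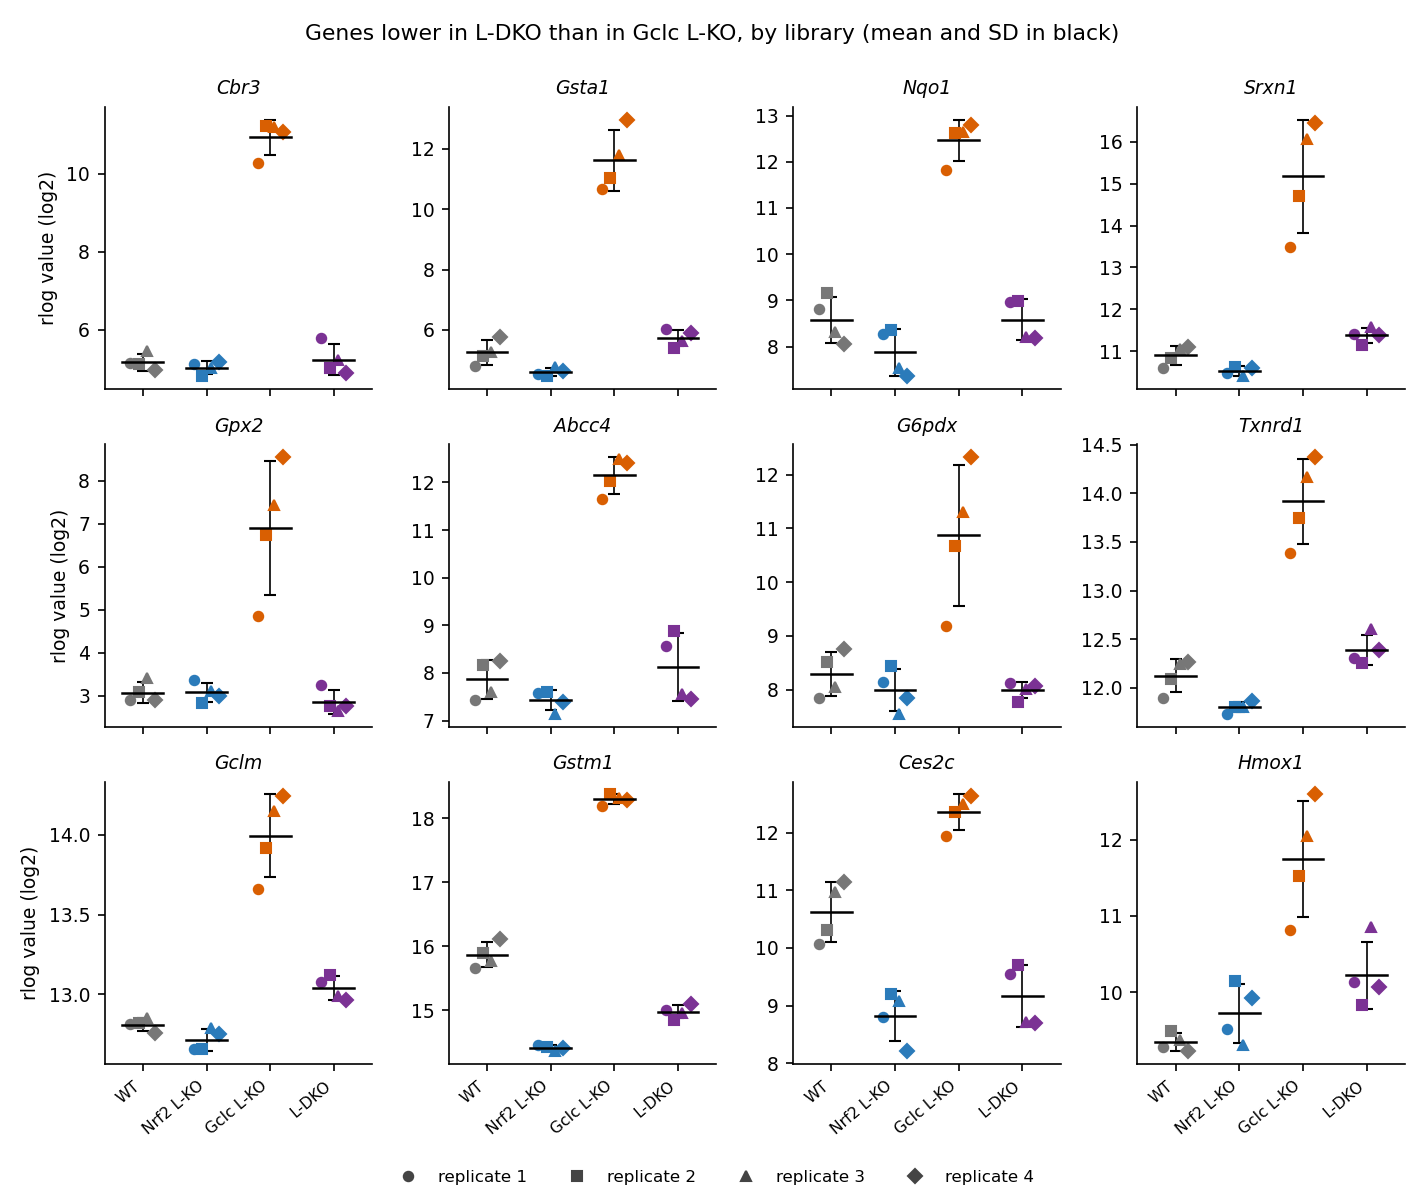
Regularised log2 value (y axis) of 12 genes lower in L-DKO than Gclc L-KO, in each library, grouped by genotype on the x axis, with black bars for the mean and SD of 4 libraries and symbols for the replicate number. In each panel but that of *Hmox1* the 4 L-DKO libraries sit below the 4 Gclc L-KO libraries, as with *Nqo1* at 8.18 to 8.98 against 11.82 to 12.79.

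Glutathione synthesis and recycling changed by less. Of 27 tested genes 8 were lower, *Gclc* itself included, and 1 was higher. *Gclm* read 13.66, 13.92, 14.15 and 14.24 in Gclc L-KO against 13.08, 13.12, 12.99 and 12.97 in L-DKO. The groups did not overlap, though the step was small (-0.95 ± 0.10, adjusted p = 3.27e-05). Glutathione reductase, *Gsr*, differed by -1.21 (adjusted p = 2.40e-04) and glutathione synthetase, *Gss*, by -0.83 (adjusted p = 0.0163, and 0.062 without Gclc L-KO replicate 3 and 0.0794 with only the 8 libraries). The cystine carrier *Slc7a11* read 3.20, 4.72, 8.64 and 10.35 in Gclc L-KO against 3.67, 3.23, 3.55 and 3.25 in L-DKO. It was high in Gclc L-KO replicates 3 and 4 alone, the groups overlapped and the difference was not called (-3.30, adjusted p = 0.0733). Without Gclc L-KO replicate 3 the list held 5 lower genes. *Esd*, which completes the glutathione-dependent removal of formaldehyde, differed by -1.07 (adjusted p = 6.20e-05).

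The thioredoxin system was partly lower, with 6 of 22 genes lower (27.3%) and 2 higher (9.09%). *Srxn1*, the sulfiredoxin that repairs over-oxidised peroxiredoxins, read 13.49, 14.69, 16.06 and 16.44 in Gclc L-KO against 11.42, 11.14, 11.58 and 11.38 in L-DKO. Its L-DKO values were nearly level while its Gclc L-KO values were widely spread, and the groups were apart (-3.79 ± 0.44, adjusted p = 9.30e-05). *Txnrd1*, the cytosolic thioredoxin reductase whose promoter is shown, read 13.38, 13.74, 14.17 and 14.37 in Gclc L-KO against 12.30, 12.26, 12.60 and 12.39 in L-DKO. Here too every Gclc L-KO library was the higher one (-1.53 ± 0.17, adjusted p = 4.42e-05). Thioredoxin itself, *Txn1*, differed by -0.73 (adjusted p = 2.58e-04) and *Prdx1* by -0.40 (adjusted p = 0.00527). Among 13 peroxidases, dismutases and catalase 4 were lower. *Gpx2*, a glutathione peroxidase, read 4.86, 6.75, 7.45 and 8.56 in Gclc L-KO against 3.26, 2.77, 2.64 and 2.77 in L-DKO. Its Gclc L-KO libraries spread widely above a flat L-DKO group (-4.04 ± 0.52, adjusted p = 2.24e-04). *Gpx4*, which reduces lipid hydroperoxides, differed by -0.86 (adjusted p = 6.21e-04) and catalase, *Cat*, by -0.74 (adjusted p = 0.00959).

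Enzymes of NADPH supply were lower in part. Of 21 pentose phosphate and NADPH enzymes 6 were lower and none was higher. *G6pdx*, the entry enzyme of the pathway, read 9.19, 10.67, 11.30 and 12.33 in Gclc L-KO against 8.12, 7.78, 8.005 and 8.06 in L-DKO. Gclc L-KO replicate 1 was the lowest of its group and still above all L-DKO libraries (-2.88 ± 0.46, adjusted p = 0.00153). *Pgd* differed by -1.84 (adjusted p = 7.54e-04), *Tkt* by -0.93 (adjusted p = 1.21e-06), *Taldo1* by -0.72 (adjusted p = 0.00562) and the mitochondrial folate enzyme *Mthfd1l* by -1.42 (adjusted p = 0.00274). With only the 8 libraries fitted, *Prdx1* and *Taldo1* were not called (adjusted p = 0.0919 and 0.0605), nor was *Cat*.

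Conjugating enzymes were lower in part, with 8 of 28 glucuronosyltransferases and sulfotransferases lower and 1 higher. *Ugt2b35* read 14.74, 14.83, 14.72 and 14.31 in Gclc L-KO against 11.86, 11.78, 11.38 and 11.77 in L-DKO. The L-DKO libraries were also below WT (12.51 to 13.31), with a difference from Gclc L-KO of -2.95 ± 0.18 (adjusted p = 9.31e-08). *Ugdh*, which makes the UDP-glucuronate that these enzymes use and whose printed promoter holds both motif matches, differed by -1.68 ± 0.15 (adjusted p = 4.71e-06). *Ugt2b5* differed by -2.20, *Ugt1a9* by -1.60 and *Ugt2b36* by -1.30 (adjusted p = 1.88e-09, 8.97e-04 and 6.21e-04). Carboxylesterases, which hydrolyse esters and drugs, had 4 of 14 members lower and none higher. *Ces2c* read 11.93, 12.35, 12.50 and 12.64 in Gclc L-KO against 9.55, 9.70, 8.71 and 8.70 in L-DKO, and the L-DKO values of replicates 3 and 4 were the lowest (-3.19 ± 0.29, adjusted p = 7.87e-06). *Ces1b* differed by -2.58 (adjusted p = 2.62e-04) and *Ces1g* by -1.93 (adjusted p = 5.11e-04). Both families are clusters of near copies, so their single values are uncertain in the same way.

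Cytochrome P450 genes moved little as a family. Of 58 tested members 4 were lower and 2 higher, with a median of 0.06, and the replicate block gave 6 lower and 7 higher. The shares of 6.9% lower and 3.45% higher lay near the 4.8% and 3.84% over all genes. *Cyp2a5*, the coumarin hydroxylase, stood out at 17.40, 17.46, 17.52 and 17.44 in Gclc L-KO against 13.66, 14.21, 11.92 and 12.27 in L-DKO. Every L-DKO library lay below every Gclc L-KO library (-4.44 ± 0.54, adjusted p = 1.40e-04). *Cyp1a2*, a caffeine-metabolising enzyme, differed by -1.39 (adjusted p = 0.00274) and *Cyp2c23* by 1.48 (adjusted p = 0.00723, and 0.0686 with only the 8 libraries).

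Several exporters of conjugates were lower and a carrier of the uptake side was higher. Of 36 ABC exporters and organic ion carriers 6 were lower and 3 higher. *Abcc4*, an exporter of the basolateral membrane, read 11.66, 12.02, 12.49 and 12.41 in Gclc L-KO against 8.57, 8.88, 7.56 and 7.46 in L-DKO. The separation was complete and larger in replicates 3 and 4 (-4.03 ± 0.30, adjusted p = 9.13e-07). *Abcc3* differed by -2.06 (adjusted p = 4.02e-05), *Abcc2* of the canalicular membrane by -1.30 (adjusted p = 8.68e-05), *Abcc12* by -2.51 (adjusted p = 9.31e-08) and the urate exporter *Abcg2* by -1.22 (adjusted p = 0.01). The organic anion uptake carrier *Slco1a1* read 9.14, 8.42, 8.56 and 8.08 in Gclc L-KO against 11.37, 10.75, 11.90 and 11.32 in L-DKO. It was thus higher in L-DKO (2.79 ± 0.37, adjusted p = 3.00e-04) but remained under the WT range of 12.21 to 13.71 (-1.71, adjusted p = 0.0126).

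Iron and haem genes were partly lower. Of 27 genes of iron storage, export and sensing 6 were lower and none was higher. The ferritin chains *Fth1* and *Ftl1* differed by -1.36 and -1.07 (adjusted p = 7.84e-05 and 1.64e-04), the iron exporter *Slc40a1* by -1.30 (adjusted p = 1.64e-04), the haem carrier *Slc48a1* by -1.46 (adjusted p = 5.64e-06) and the iron sensor *Hfe* by -0.80 (adjusted p = 9.28e-07). Ferritin genes have many processed copies in the genome, so reads may be shared among them. *Hmox1*, haem oxygenase, read 10.81, 11.52, 12.05 and 12.59 in Gclc L-KO against 10.13, 9.83, 10.85 and 10.06 in L-DKO. Its groups overlapped and the difference passed the test (-1.52 ± 0.31, adjusted p = 0.00737), but not with only the 8 libraries (adjusted p = 0.0559). Of 19 haem genes 6 were lower and 1 higher, and 3 were lower without any 1 of Gclc L-KO replicates 1, 2 and 3 and L-DKO replicates 1, 3 and 4.

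Of the 35 further genes listed as NRF2 targets 12 were lower and 3 were higher, with a median of -0.51. The glycine carrier *Slc6a9* differed by -1.96 (adjusted p = 1.32e-04), the nucleotidase *Entpd5* by -1.89 (adjusted p = 9.31e-08), the oxidoreductase *Htatip2* by -1.23 (adjusted p = 5.22e-06) and pirin, *Pir*, by -1.01 (adjusted p = 9.01e-07). Outside the lists of NRF2 targets the glutamate and cysteine carrier *Slc1a1* was among the largest falls, at 4.54, 6.38, 7.80 and 8.62 in Gclc L-KO against 3.17, 3.33, 2.91 and 3.26 in L-DKO (-3.67 ± 0.60, adjusted p = 0.00179). The epithelial gene *Ly6d* differed by -2.80 (adjusted p = 0.00112). Among NRF2 and its regulators *Keap1* was not called (-0.14, adjusted p = 0.208), nor was the partner gene *Mafg* (-0.23, adjusted p = 0.145, and 0.0435 with the replicate block), whereas the repressor *Bach1* was (-0.57, adjusted p = 0.0478), though not without any 1 of Gclc L-KO replicates 1, 3 and 4 and L-DKO replicates 1 and 4 (adjusted p up to 0.144) nor with only the 8 libraries (0.107). In the detoxification lists above, apart from the glutathione and haem lists, the count of lower genes moved by less than 1.5 times when any 1 of the 8 libraries was left out. Their counts of higher genes were 3 or fewer and moved between 0 and 5.

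**Figure D2:**
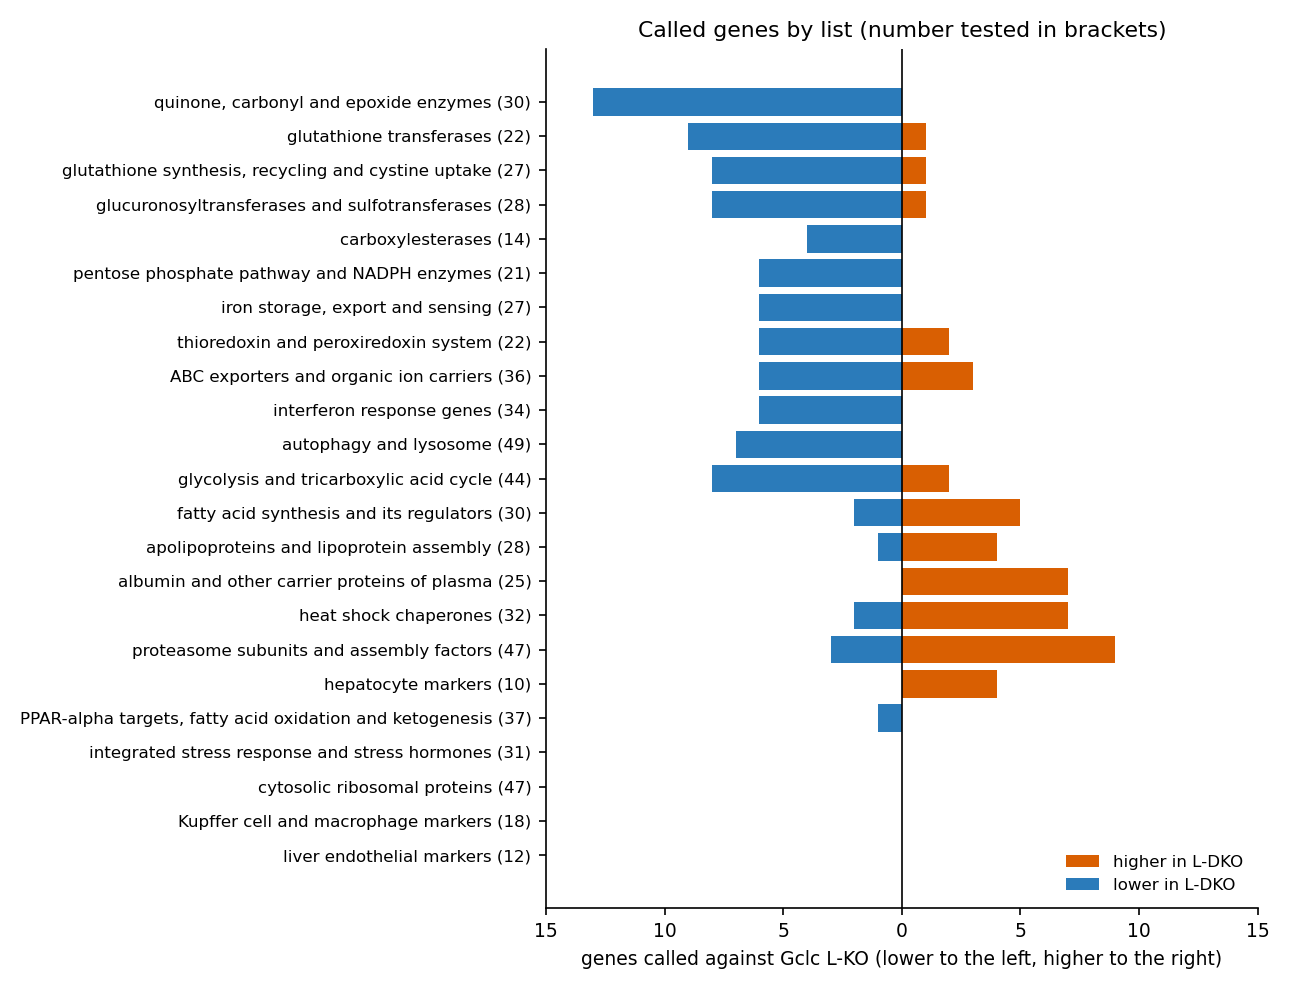
Number of tested genes of each list called higher (right of 0) or lower (left of 0) in L-DKO than Gclc L-KO, 1 bar per list. The lists drawn are a selection. The detoxification lists drawn lie mainly to the left, such as 13 of 30 quinone, carbonyl and epoxide enzymes, and plasma carriers lie to the right with 7 of 25. Lists not drawn include cytochrome P450 genes (4 lower and 2 higher of 58) and aldehyde and alcohol dehydrogenases (6 lower and 2 higher of 22).

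The level of L-DKO against WT was read beside these differences. L-DKO and WT differed in 573 higher (3.79%) and 933 lower (6.17%) genes, and Gclc L-KO and WT in 1609 (10.6%) and 1872 (12.4%). Among the 726 genes lower in L-DKO than Gclc L-KO 560 were not called against WT, 159 were below WT and 7 were above. Their median was 0.35 in Gclc L-KO minus WT and -0.12 in L-DKO minus WT. Among the 581 higher genes 480 were not called against WT, 17 were below and 84 above, with medians of -0.37 and 0.10. These contrasts share libraries with each other, so the counts are descriptions.

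Several enzymes of conjugation and export were below WT in L-DKO as well. *Gstm1* was joined by *Ugt2b35* (-1.30 against WT, adjusted p = 0.00142), *Ces2c* (-1.46, 0.0095), *Ces1b* (-2.07, 0.00314), *Abcc3* (-1.39, 0.00266), *Tkt* (-0.58, 7.48e-04) and *Hfe* (-0.35, 0.00404). Other targets lay below Gclc L-KO and still above WT, among them *Akr1c19* (0.69 against WT, adjusted p = 0.006), *Slc48a1* (0.46, 0.0411) and *Htatip2* (0.62, 0.00464).

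Some genes of lipid metabolism were among those higher in L-DKO. Of 11 lipid genes for which the study lists primers 5 were higher and none was lower, and the median was 0.56; the study chose these genes itself, so the list is not independent evidence of a direction. *Scd1*, which desaturates stearate, read 14.93, 14.34, 14.16 and 14.14 in Gclc L-KO against 16.64, 16.74, 16.36 and 16.16 in L-DKO. All L-DKO libraries lay above all Gclc L-KO libraries (2.08 ± 0.29, adjusted p = 4.64e-04) and below the WT range of 16.84 to 17.94 (-0.98, adjusted p = 0.0463). *Fabp1*, the liver fatty acid binding protein, read 15.36, 14.96, 13.79 and 13.48 in Gclc L-KO against 16.01, 16.54, 16.01 and 16.07 in L-DKO. Its Gclc L-KO values fell into a higher pair and a lower pair, both below L-DKO (1.75 ± 0.34, adjusted p = 0.00515). The thioesterase *Acot1* differed by 1.64 (adjusted p = 0.003), and the elongases *Elovl5* and *Elovl2* by 1.03 and 0.96 (adjusted p = 0.0041 and 4.08e-04). *Fasn*, fatty acid synthase, was not called at 13.81, 13.24, 12.97 and 12.91 in Gclc L-KO against 14.31, 14.13, 13.24 and 13.26 in L-DKO (0.50, adjusted p = 0.264). The ligase *Acsl5* stood at the threshold and was not called (0.47, adjusted p = 0.05), and *Acsl1* (0.19, 0.637), *Acot2* (0.27, 0.765), *Acaa1b* (-0.10, 0.842) and *Aacs* (0.56, 0.391) were not called either.

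Over the wider list of 30 fatty acid synthesis genes 5 were higher and 2 lower, with 8 higher without Gclc L-KO replicate 1 and 1 lower without Gclc L-KO replicate 2, L-DKO replicate 1 or L-DKO replicate 4. The desaturase *Fads1* differed by 0.66 (adjusted p = 0.00701), and the elongation enzyme *Hacd3* moved the other way (-0.82, adjusted p = 6.21e-04). *Angptl8*, a feeding-induced inhibitor of lipoprotein lipase, read 9.84, 9.73, 8.42 and 8.64 in Gclc L-KO against 11.43, 11.17, 11.13 and 10.84 in L-DKO (1.98 ± 0.35, adjusted p = 0.00292). The acylglycerol transferase *Mogat2* differed by -1.22 (adjusted p = 0.0106, and 0.0609 with only the 8 libraries) and the adipogenic receptor *Pparg* by -1.17 (adjusted p = 0.00203), both lower in L-DKO. Of 37 PPAR-alpha targets and oxidation genes 1, *Acadm*, was lower and none was higher. Other lipid lists had few calls in either direction. Of 28 triglyceride synthesis and droplet genes 1 was higher (3.57%) and 2 lower (7.14%), and of 27 cholesterol genes 1 and 1 (3.7% each). These shares lay near the 3.84% higher and 4.8% lower over all genes. Of 14 LXR targets of sterol efflux none was higher and 1 was lower. Without Gclc L-KO replicate 1 these 3 lists held 2, 7 and 2 higher and 4, 0 and 1 lower genes. Of 29 fatty acid uptake and thioesterase genes 4 were higher and 2 lower.

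Among secreted hepatocyte proteins the plasma carriers were higher in part (28% of the tested genes, beside 3.84% of all genes). Complement and coagulation factors (7.5% higher) and acute phase proteins (6.67%) stood nearer to the share over all genes. Of 40 complement and coagulation factors 3 were higher and 1 was lower, with 1 higher without any 1 of Gclc L-KO replicates 3 and 4 and L-DKO replicates 3 and 4, and of 30 acute phase proteins 2 were higher and none was lower. The acute phase count was 4 without Gclc L-KO replicate 2 or with the replicate block, 1 without L-DKO replicate 4 and 0 without any 1 of Gclc L-KO replicates 3 and 4 and L-DKO replicates 1 and 2. Of 25 plasma carrier genes 7 were higher and none was lower, with a median of 0.62 and 24 of 25 differences above 0. *Serpina7*, which encodes thyroxine-binding globulin, read 8.99, 7.67, 8.02 and 8.09 in Gclc L-KO against 9.99, 10.17, 10.49 and 10.73 in L-DKO. The groups were apart (2.15 ± 0.35, adjusted p = 0.00174), and L-DKO overlapped the WT range of 9.65 to 10.53. *Mup3*, a major urinary protein, differed by 2.07 (adjusted p = 0.00162) and remained below WT (-1.56, adjusted p = 0.0126). The retinol carrier *Rbp4* differed by 0.99 (adjusted p = 0.00309) and *Igfbp2* by 1.38 (adjusted p = 1.76e-04), whereas *Alb* was not called (0.89, adjusted p = 0.428). *Apoa1*, the main protein of high density lipoprotein, read 15.50, 15.99, 16.01 and 15.94 in Gclc L-KO against 16.95, 17.04, 17.09 and 17.37 in L-DKO (1.25 ± 0.21, adjusted p = 0.00185), and *Apoc2*, the cofactor of lipoprotein lipase, differed by 1.13 (adjusted p = 0.0105). Of 28 apolipoprotein genes 4 were higher (14.3%) and 1 lower (3.57%). Without Gclc L-KO replicate 3 the carrier list held 4 higher genes and the apolipoprotein list 2, as it did without Gclc L-KO replicate 4, L-DKO replicate 2 or L-DKO replicate 4.

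**Figure D3:**
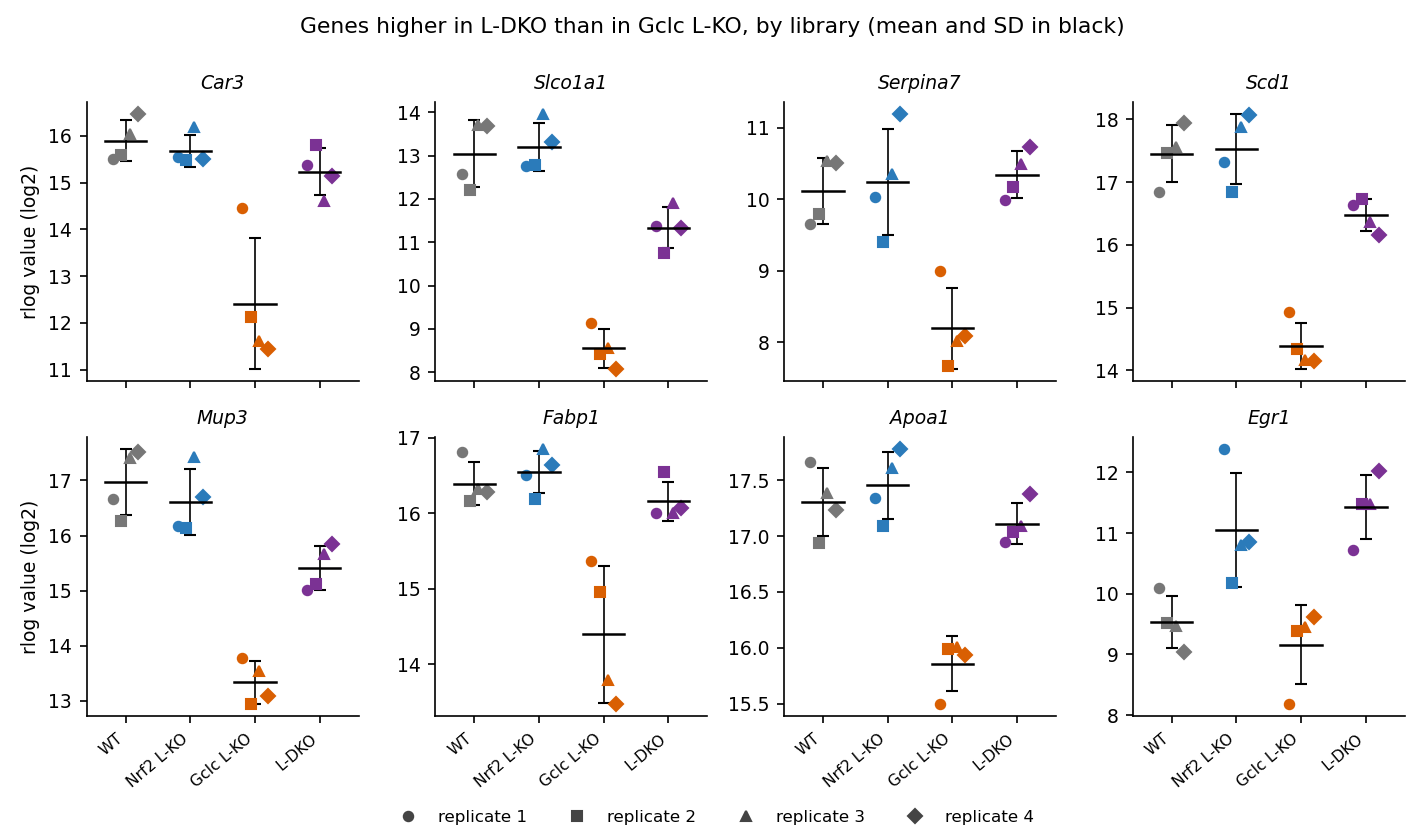
Regularised log2 value (y axis) of 8 genes higher in L-DKO than Gclc L-KO, in each library, grouped by genotype, with black bars for the mean and SD of 4 libraries. *Slco1a1*, *Scd1* and *Mup3* sit between Gclc L-KO and WT, as with *Scd1* at 16.16 to 16.74 in L-DKO, while *Egr1* at 10.73 to 12.02 lies above the WT range of 9.05 to 10.09.

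The largest rises included genes of differentiated hepatocytes and of signalling. *Car3*, a carbonic anhydrase abundant in liver, read 14.46, 12.14, 11.62 and 11.44 in Gclc L-KO against 15.38, 15.80, 14.60 and 15.15 in L-DKO. Gclc L-KO replicate 1 was close to the lowest L-DKO library but did not reach it (2.82 ± 0.51, adjusted p = 0.00327). *Egr1*, an immediate early transcription factor, read 8.19, 9.39, 9.45 and 9.62 in Gclc L-KO against 10.73, 11.49, 11.48 and 12.02 in L-DKO. It was above both Gclc L-KO (2.27 ± 0.43, adjusted p = 0.00446) and WT (1.90, adjusted p = 0.0151). The vasopressin receptor gene *Avpr1a* differed by 2.08 (adjusted p = 6.23e-04). Of 10 hepatocyte markers 4 were higher and none was lower, with a median of 0.64. *Tat*, tyrosine aminotransferase, differed by 1.49 (adjusted p = 0.00373). The axonemal dynein gene *Dnai1* differed by 1.93 (adjusted p = 7.62e-04), the calcium pump *Atp2b2* by 1.82 (adjusted p = 0.00676), the ribonuclease *Ang* by 1.60 (adjusted p = 0.00164) and *Acmsd*, of tryptophan breakdown, by 1.11 (adjusted p = 0.00442). Among the histone H4 genes *H4c9* differed by 1.32 and *H4c8* by 1.12 (adjusted p = 7.76e-05 and 4.16e-04), and both were above WT (0.57 and 0.98, adjusted p = 0.0319 and 0.00255). Histone H4 genes are near copies, and many of their transcripts lack the poly(A) tail that the library kit captures. The hepatocyte marker list held 2 higher genes without Gclc L-KO replicate 3, without Gclc L-KO replicate 4 or without L-DKO replicate 1.

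Cytosolic chaperones were also higher in part. Of 32 heat shock chaperones 7 were higher (21.9%, beside 3.84% of all genes) and 2 lower (6.25%, beside 4.8%). But 1 was higher without Gclc L-KO replicate 2 or 3 or L-DKO replicate 4, 2 without Gclc L-KO replicate 4 or L-DKO replicate 3 and 3 when L-DKO replicate 1 was left out. *Hspa8*, the constitutive HSP70, read 14.25, 14.10, 13.92 and 13.997 in Gclc L-KO against 14.60, 14.55, 15.05 and 14.82 in L-DKO (0.69 ± 0.12, adjusted p = 0.00257), and was also above WT (0.71, adjusted p = 0.00387). The mitochondrial chaperonin *Hspd1* moved the other way (-0.40, adjusted p = 0.00461). Of 47 proteasome genes 9 were higher (19.1%) and 3 lower (6.38%), with 5 higher without Gclc L-KO replicate 3 or L-DKO replicate 4 and 1 lower without Gclc L-KO replicate 3. The ubiquitin receptor *Adrm1* differed by 0.44 (adjusted p = 9.32e-04), while *Psmd5*, an assembly chaperone, differed by -0.45 (adjusted p = 0.00143).

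Interferon response genes lay lower in L-DKO, with 6 of 34 called lower (17.6%, beside 4.8% of all genes), none higher and 31 below 0 (median -0.54). *Mx1*, an antiviral GTPase, read 8.01, 8.58, 10.08 and 10.20 in Gclc L-KO against 7.37, 6.94, 6.62 and 6.75 in L-DKO. Its Gclc L-KO libraries were all higher, most of all replicates 3 and 4 (-2.296 ± 0.38, adjusted p = 0.00193). *Irf7* differed by -1.29 (adjusted p = 0.00364) and *Oasl1* by -1.02 (adjusted p = 0.0127). The count was 3 without Gclc L-KO replicate 1, 2 or 3 or L-DKO replicate 3 or 4, 13 without Gclc L-KO replicate 4 and 12 with the replicate block. Of 44 glycolysis and tricarboxylic acid cycle genes 8 were lower and 2 higher, led by pyruvate carboxylase, *Pcx* (-0.91, adjusted p = 0.00214), with 3 lower without Gclc L-KO replicate 2 and 5 without L-DKO replicate 1 or 3. Of 49 autophagy and lysosome genes 7 were lower and none higher, led by *Wipi1* (-0.60, adjusted p = 0.00368), with 2 lower without Gclc L-KO replicate 3 or L-DKO replicate 4, 3 without Gclc L-KO replicate 2 or 4 or L-DKO replicate 1 and 4 when L-DKO replicate 3 was left out.

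With only the 8 libraries fitted, counts over these lists were smaller, with 5 lower glutathione genes, 2 lower peroxidase and 2 lower haem genes, 2 higher apolipoprotein, 4 higher carrier, 2 higher hepatocyte marker, 4 higher chaperone and 1 higher proteasome genes, and 3 lower interferon, 3 lower glycolysis and 2 lower autophagy genes.

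Other programs gave no called gene in limma. Of 31 genes of the integrated stress response none was called (3 higher and 2 lower at an unadjusted p under 0.05), of 47 cytosolic ribosomal proteins none (1 and 1), of 22 clock genes none (1 and 1), of 16 YAP and TAZ targets none (0 and 2) and of 19 bile duct and progenitor-like injury markers none (1 and 3). Markers of other liver cell types were also not called. None of 18 Kupffer cell and macrophage markers passed even the unadjusted threshold, with a median of -0.21 and library means of 8.44 to 9.23 in Gclc L-KO and 8.40 to 8.94 in L-DKO. Of 12 endothelial markers all lay below 0 (median -0.18) and 1 was lower at the unadjusted threshold, with library means of 9.47 to 9.80 and 8.70 to 9.74. The 12 stellate and 16 lymphocyte markers had none at that threshold, nor had the 6 red cell and 3 neutrophil markers, and the other 7 of 10 neutrophil markers were under the minimum mean. Of 9 bile duct cell markers 1 was higher and 2 were lower at an unadjusted p under 0.05. In bulk liver fewer cells of a type and less RNA per cell cannot be told apart, and the part of cell composition in the other differences was not tested.

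The effect of *Nrf2* targeting was then read in livers with and without *Gclc* targeting. Against WT, Nrf2 L-KO had 19 lower genes (0.126%) and 2 higher genes (0.0132%), a difference of means that uses none of the 8 libraries described so far, although its p-values share with them the spread estimated over all 16. All 19 were among the genes lower in L-DKO, which is 100% of the shorter list and 2.62% of the 726 genes. Their median was -1.10 in Nrf2 L-KO minus WT and -2.03 in L-DKO minus Gclc L-KO. They included *Gstm1* (-1.45, adjusted p = 3.67e-05), *Ces2c* (-1.80, 0.0237), *Ces1b* (-1.98, 0.0296), *Ugt2b35* (-1.43, 0.00332) and *Abcc3* (-1.34, 0.0238). *Nqo1* was not called there (-0.70, adjusted p = 0.72), with 8.28, 8.35, 7.53 and 7.35 in Nrf2 L-KO and 8.81, 9.16, 8.31 and 8.05 in WT. Of the 2 higher genes *Cyfip2* was not called in the comparison with *Gclc* targeted, and the other, which has no symbol in the table, was higher there. Of the 581 higher genes 353 (60.8%) had the same sign in Nrf2 L-KO minus WT, as did 590 of the 726 lower genes (81.3%) and 52.9% of all genes.

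The difference between these effects was tested as an interaction, L-DKO minus Gclc L-KO less Nrf2 L-KO minus WT. It was called for 104 genes, 70 with a negative sign (0.463%) and 34 with a positive sign (0.225%). *Cbr3* had the value -5.56 (adjusted p = 2.69e-07), *Gsta1* -5.23 (9.48e-05), *Gpx2* -4.05 (0.0222), *Abcc4* -3.59 (5.83e-04), *Srxn1* -3.42 (0.0235) and *Nqo1* -3.18 (0.00256). In these genes L-DKO minus Gclc L-KO was more negative than Nrf2 L-KO minus WT. Positive values belonged to genes in which L-DKO minus Gclc L-KO was the more positive difference. Among them were *Slco1a1* (2.63, adjusted p = 0.0344), *Mup3* (2.43, 0.0328), *Scd1* (2.01, 0.0392), *Avpr1a* (1.96, 0.0498) and the feedback inhibitor *Errfi1* (1.96, 0.0434). Of the 19 genes above *Gstm1* had an interaction too (-1.86, adjusted p = 3.48e-05), whereas *Ces2c* had none that was called (-1.39, 0.162). *Cbr3*, *Gsta1*, *Abcc4*, *Nqo1* and *Gstm1* were called whichever of the 16 libraries was left out, and *Gpx2* lost its call in 4 and *Srxn1* in 5 of the 16 fits. The genes with positive values lost theirs in most of them, *Avpr1a* in 14, *Scd1* and *Errfi1* in 13, *Slco1a1* in 12 and *Mup3* in 11. Each of these 7 was lost without Gclc L-KO replicate 3. The count was 31 without Gclc L-KO replicate 3 and 257 without Gclc L-KO replicate 1. It was 40 to 66 without any 1 of WT replicates 1, 3 and 4, Gclc L-KO replicates 2 and 4, Nrf2 L-KO replicates 1 to 3 and L-DKO replicates 1, 3 and 4, and 12 and 488 within the pairs of replicates 1 and 2 and of replicates 3 and 4.

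**Figure D4:**
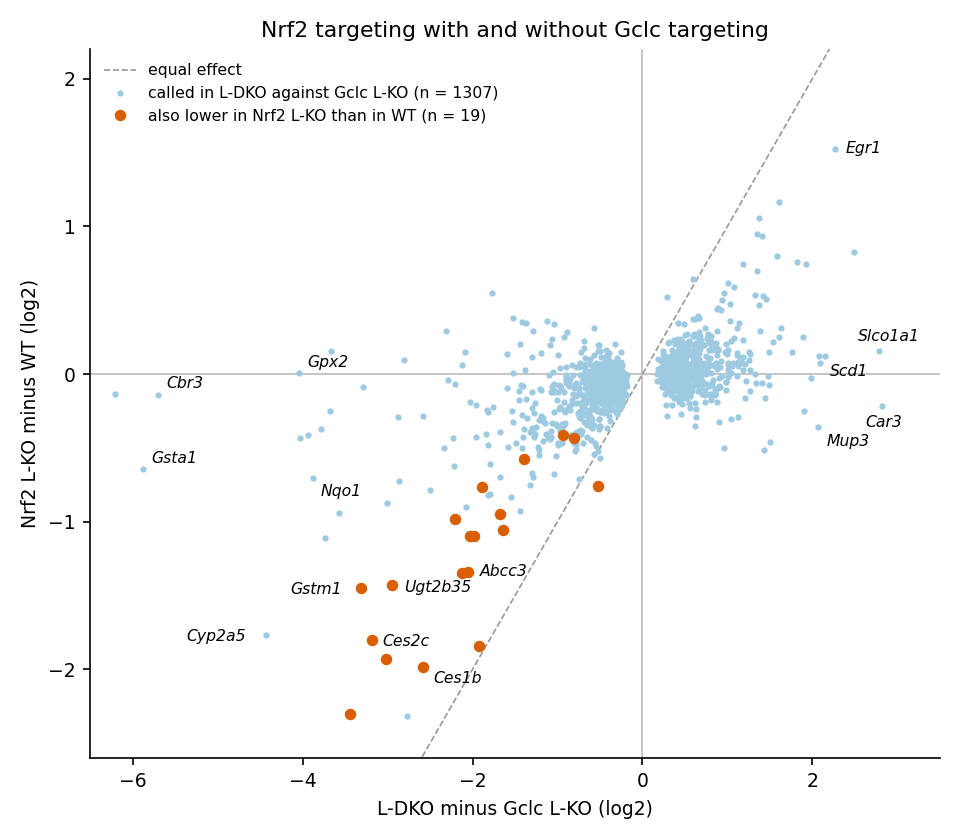
Difference of Nrf2 L-KO from WT (y axis, log2) against the difference of L-DKO from Gclc L-KO (x axis, log2) for the 1307 genes called in the latter, with the 19 genes lower in Nrf2 L-KO in orange and equal effects on the dashed line. *Cbr3* and *Gsta1* lie at the far left near the horizontal line, and *Ces1b* and *Abcc3* lie nearer the dashed line.

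Within the replicate pairs, which by *Xist* and *Ddx3y* have the pattern of females (replicates 1 and 2) and males (replicates 3 and 4), the difference had a different size. The called higher genes had a median of 0.39 in replicates 1 and 2 and 0.59 in replicates 3 and 4, and the called lower genes -0.41 and -0.58. Over all 15128 genes the median absolute difference was 0.145 and 0.21, so a larger size in replicates 3 and 4 was not particular to called genes. It was larger there for 9620 of all genes, 475 of the 581 higher and 537 of the 726 lower ones. In the fit on all libraries with a mean per genotype and pair, from which these medians come, 153 genes were higher and 328 lower in replicates 1 and 2, and 1321 and 1252 in replicates 3 and 4. Of the genes given above by library *Slc7a11*, *Hmox1*, *Angptl8*, *Egr1* and *Hspa8* were called there within replicates 3 and 4 and not within replicates 1 and 2. When each pair was fitted on its own, the same held for these and for *Gpx2*, *G6pdx*, *Slc1a1*, *Fabp1*, *Serpina7*, *Apoa1*, *Car3*, *Mup21* and *Mx1*. A test of the difference between pairs called 28 genes, 14 of each sign (0.0925% each). *Slc7a11* differed by -0.51 in replicates 1 and 2 and by -6.09 in replicates 3 and 4 (difference -5.58, adjusted p = 0.0252). *Mx1* differed by -1.14 and -3.45 (difference -2.32, adjusted p = 0.0196) and the amino acid carrier *Slc1a4* by -0.33 and -2.89 (difference -2.56, adjusted p = 0.043). In the other direction the urinary protein gene *Mup21* differed by 1.06 and 4.35 (difference 3.29, adjusted p = 0.00673), the elongase *Elovl3* by 0.19 and 2.68 (difference 2.49, adjusted p = 0.0358) and *Gstp1* by -2.77 and -1.40 (difference 1.37, adjusted p = 0.0196). Of these 6 genes only *Mx1* was called over both pairs in the fit on all 16 libraries, and the replicate block called *Mup21*, *Slc1a4* and *Gstp1* too (adjusted p = 0.044, 0.0414 and 0.00168). The pair test called 2 genes without Gclc L-KO replicate 1 or L-DKO replicate 2, 14 when L-DKO replicate 1 was left out and 4 when it was L-DKO replicate 4. It rested on 2 libraries per genotype and pair: with the replicate block it called 1 gene, and without Gclc L-KO replicate 4 or without L-DKO replicate 3 limma called 0, with 1463 and 2225 genes at an unadjusted p under 0.05.

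**Figure D5:**
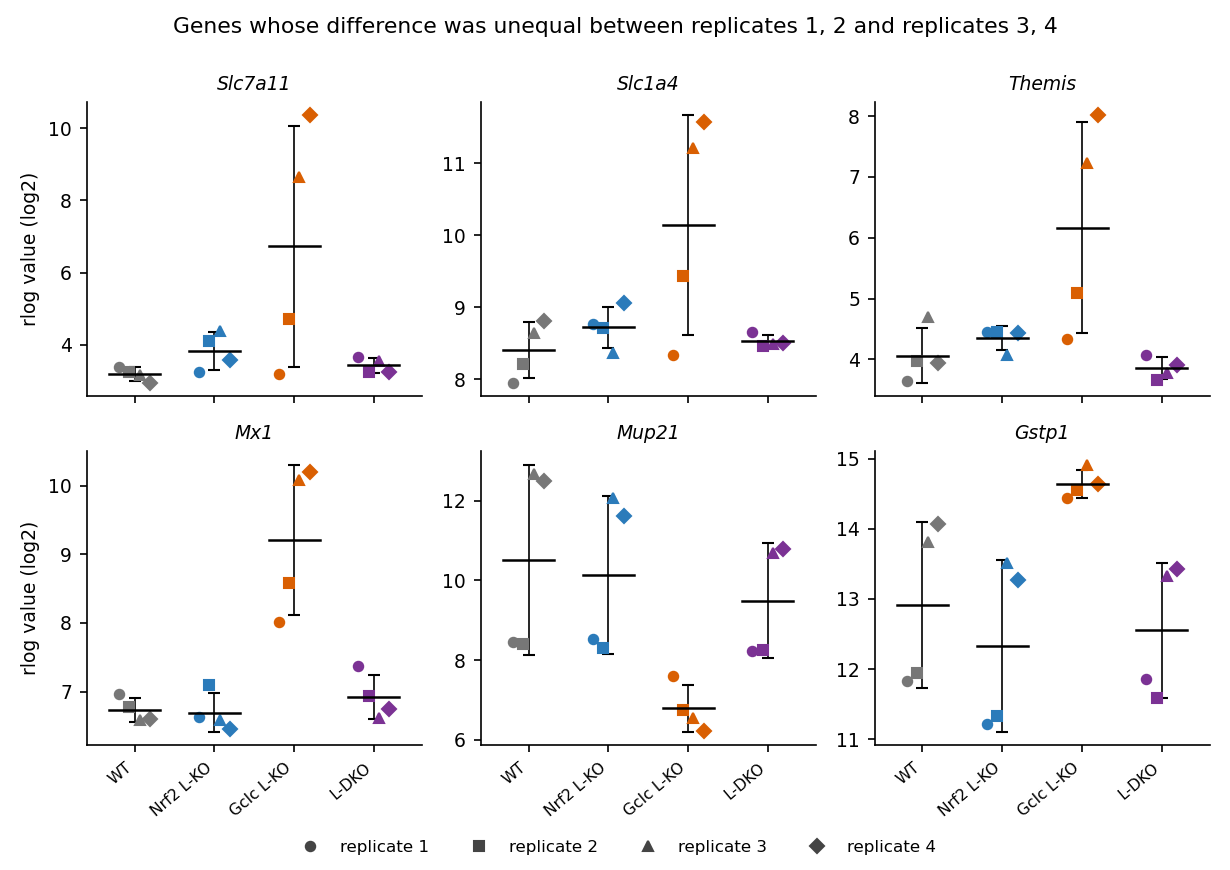
Regularised log2 value (y axis) in each library, grouped by genotype, of 6 genes whose L-DKO minus Gclc L-KO difference was unequal between the replicate pairs, with black bars for the mean and SD of 4 libraries and symbols for the replicate number. *Slc7a11* is high in Gclc L-KO replicates 3 and 4, and *Mup21* is high in replicates 3 and 4 of WT, Nrf2 L-KO and L-DKO, where it read 8.22, 8.26, 10.68 and 10.79, but not of Gclc L-KO, where it read 7.61, 6.76, 6.54 and 6.23.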

How the data were processed

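Poly(A) RNA from 16 mouse livers, 4 per genotype, was sequenced from stranded libraries. Per the submitters' processing notes and the methods, the authors used bcl2fastq 2.20.0 and fastp, aligned reads to GRCm39 with STAR 2.7.9a, counted with featureCounts of Subread 2.0.1 and transformed counts with DESeq2 1.34.0 (R 3.5.1). The deposited values are regularised log2 values (rlog), which draw low genes together, so differences understate changes of low genes, and neither depth nor counting intervals can be given. All 16 value columns were used.

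Of 56832 genes, 26656 were at 0 in every library and 15128 with a mean of at least 3 over the 16 libraries were tested. limma 3.58.1 (R 4.3.3) was fitted with 1 mean per genotype and a mean-variance trend, and p-values were adjusted by the Benjamini-Hochberg method over all tested genes. The script recovered known changes in simulated data, in which every genotype had the same spread for a given gene. The simulation therefore does not show how unequal spreads between genotypes affect the calls. Tables and plots used Python 3.11.15, pandas 2.3.3 and matplotlib 3.10.9.

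Genes were named by rule: the targeted and primer genes, the 15 largest rises and falls and 10 largest interactions of each sign among called, non-overlapping genes, the 5 largest pair differences of each sign, and in each list the first 2 tested genes and up to 6 with the largest called change. *Keap1*, *Mafg*, *Gstp3*, *Akr1c13*, *Akr1c19*, *Pir* and *Cyfip2* fall outside it and were chosen after their values were seen. Some genes that the rule names are not reported here. The gene lists, the primer list among them, and the comparisons were chosen with earlier results of these data known.

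Replicate numbers are in the labels. Deviations of same-numbered L-DKO and Gclc L-KO libraries from their group means correlated across genes with r of 0.21 to 0.38. L-DKO replicate 2 correlated more with Gclc L-KO replicate 1 (0.61) than with replicate 2 (0.31). L-DKO replicate 3 correlated more with Gclc L-KO replicate 4 (0.52) than with replicate 3 (0.21). These values do not show that same-numbered libraries were matched, so the replicate block was used only as an alternative fit. Replicates 1 and 2 differed from 3 and 4 in *Xist* and *Ddx3y*, with the pattern of females and males. Alternatives were another filter, no trend, robust or array-weighted fits, median centring, quantile normalization, the replicate block, *Xist* as covariate, only the 8 libraries, each pair alone and each library left out.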

Additional observations from a re-analysis of the deposited data

Results flagged for a closer look

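In 11 of 328 groups of 4 libraries (3.35%, where chance flags about 1 in 20) 1 library stood apart from the other 3, and 7 of these were Gclc L-KO replicate 1. That library was lowest for *Gpx4* (12.48, next 12.85), *Cbr3* (10.27, next 11.06), *Apoa1* (15.50, next 15.94), *Egr1* (8.19, next 9.39) and highest for *Fads2* (13.40, next 13.12), *Aacs* (10.81, next 9.24) and *Adrm1* (10.75, next 10.56). L-DKO replicate 4 stood apart for *Cbr1* (11.30, next 11.09), L-DKO replicate 2 for *Fabp1* (16.54, next 16.07) and *Pparg* (7.55, next 7.35), and Gclc L-KO replicate 2 for *Sftpa1*, a surfactant protein gene (5.58, next 5.02).

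The effect of *Nrf2* targeting differed between livers labelled Gclc L-KO and livers with *Gclc* (limma interaction) for the following genes. Among enzymes and exporters the interaction was -5.56 for *Cbr3*, -5.23 for *Gsta1*, -4.05 for *Gpx2*, -3.59 for *Abcc4*, -3.43 for *Gstp2*, -3.42 for *Srxn1*, -3.18 for *Nqo1*, -2.63 for *Gsta2*, -2.63 for *Gstm3* and -1.86 for *Gstm1*, and for the epithelial gene *Ly6d* it was -2.90. With a positive sign it was 2.63 for *Slco1a1*, 2.43 for *Mup3*, 2.01 for *Scd1*, 1.96 for *Avpr1a*, 1.96 for *Errfi1*, 1.42 for *Sftpa1*, 1.39 for *H4c14*, 1.32 for *H4c9*, 1.13 for *H4c8* and 1.01 for the plexin gene *Plxnb1*. When each of the 16 libraries was left out in turn, 13 of these 21 genes lost the call at least once. *Ly6d* lost it in 15 of 16 fits, *Sftpa1* in 12, *H4c8* in 10, *Plxnb1* in 7, *Gstp2* in 3 and *H4c14* in 3.

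The difference of L-DKO from Gclc L-KO was unequal between replicates 3 and 4 and replicates 1 and 2 for 10 named genes. It was more negative in replicates 3 and 4 by -5.58 for *Slc7a11*, -3.20 for *Gipc2*, -2.92 for *Themis*, -2.56 for *Slc1a4* and -2.32 for *Mx1*. It was more positive there by 3.29 for *Mup21*, 2.49 for *Elovl3*, 1.67 for *Fam83d*, 1.37 for *Gstp1* and 1.22 for *Setd4*.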

How the results depend on the processing

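Median centring and quantile normalization turned the sign of 0 called genes and moved the median of all differences by 0.00166 and 0.00814 on the log2 scale. With single libraries left out, genes higher in L-DKO numbered 253 to 750, genes lower 400 to 814, interactions 31 to 257 and genes unequal between the replicate pairs 0 to 39 (0 without Gclc L-KO replicate 4 or L-DKO replicate 3). Fitting only the 8 libraries gave 268 higher, 377 lower and, between the pairs, 0 genes in limma (1639 at an unadjusted p under 0.05). With *Xist* as covariate 947 were higher, 1109 lower and 218 interactions were called, and the lists of P450, interferon and plasma carrier genes held 9 higher, 13 lower and 13 higher genes. Replicates 1 and 2 alone gave 62 higher, 183 lower and 12 interactions, and replicates 3 and 4 alone gave 1025, 1155 and 488. Asking also for a change of at least 1 log2 unit left 76 higher, 136 lower, 55 interactions and 17 pair differences. Interactions numbered 64 with no filter and 265 with array weights. Pair differences numbered 15 with no trend, 76 with quantile normalization and 1 with the replicate block. The cause of these shifts was not tested, except that fewer samples or a stricter rule were used by construction. With the replicate block 748 genes were higher and 933 lower, and of the 1307 calls 1237 were shared, 70 lost and 444 gained. Apart from the blocked values printed beside their results, and *Fads2* (adjusted p = 0.0492, and 0.0643 with the block), the block changed no other call of a gene named here. Over the values of single genes under all alternatives, 2935 differences of L-DKO from Gclc L-KO stayed on their side of the threshold, 295 lost a call and 33 gained one, and no sign was reversed among called genes. Depth was unknown, so its limit on low genes could not be given.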
